A study of Mus musculus with 54 samples.

Results

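Resting primary mouse lung fibroblasts that received branched-chain keto acids (BCKA) were compared, across all genes, with the same cells given branched-chain amino acids (BCAA), which are valine, leucine and isoleucine. The comparison was chosen by the sample titles: 3 libraries with BCKA returned to BCAA-free medium and 3 with BCAA returned to it, all followed by PBS. They are 6 of the 54 libraries of the study and 6 of its 24 fibroblast libraries. Of 26264 genes listed for the fibroblasts, 13084 reached a TPM of at least 1 (TPM, a transcript's length-scaled share of its library) in at least 3 fibroblast libraries and were tested.

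The study asked how BCAA bear on lung fibrosis, in cultured fibroblasts and in whole mouse lungs injured with bleomycin; the lung samples were not used here. Fibroblasts labelled wild type were isolated by collagenase digestion and adhesion from lungs of mice aged 6 to 8 weeks, and all were grown in DMEM/F-12 with 10% fetal bovine serum under 5% oxygen. Cells of both compared groups spent 24 h in BCAA-free medium with BCAA or BCKA added and then 48 h with PBS. Further groups of 3 libraries received complete medium with PBS, BCAA-free medium without addition with PBS, or the same BCAA or BCKA media and then TGF-β1 (transforming growth factor β1), 20 ng/mL for 48 h. The concentrations of BCAA and BCKA are not given in the sources used here, so the doses cannot be matched. The libraries are labelled as triplicates, and nothing says whether they came from separate cultures or mice, so each p-value measures the spread between these libraries, which may be technical.

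Each keto acid differs from its amino acid by a keto group in place of the amino group. Cells interconvert them with the transaminases Bcat1 and Bcat2, and the mitochondrial branched-chain keto acid dehydrogenase complex (BCKDH) then commits the keto acids to oxidation. Many of the genes described here are known from the response to low oxygen, in which the hypoxia-inducible factors (HIF) bind short promoter and enhancer motifs and raise glycolytic enzymes, glucose and lactate transporters and their own negative regulators. HIF-α protein is kept low by the prolyl hydroxylases of the Egln family, which need oxygen to work.

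With keto acids, 16 of the 26 genes on a list of glycolytic and hypoxia-inducible genes rose and none fell, while the genes that fell included matrix and resting-fibroblast genes such as Clec3b, Dpt, Mfap4 and Inmt. In all, 85 genes changed, or 0.65% of the genes tested, at a limma adjusted p under 0.05: 49 were higher with BCKA (0.375%) and 36 were lower (0.275%). The rises ran from 0.43 to 1.33 and the falls from -0.38 to -1.58 on the scale of log2(TPM + 1), which understates the change of low genes, and the median difference of all genes tested was 0.00. For all 49 genes and all 36 genes the 3 libraries of one group lay wholly above the other 3, as they did for 8.51% of all genes upward and 8.58% downward. The count and its balance varied between settings. It was 226 (100 higher, 126 lower) with the compared groups alone, 198 (90 higher, 108 lower) with the 4 PBS groups, 55 (43 higher, 12 lower) with a pseudocount of 0.1, and 157 (81 higher, 76 lower) without replicate 1 of BCAA-free TGF-β1, a library outside the comparison. Leaving out replicate 3 of BCAA gave 48 genes and replicate 1 of BCKA 55.

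**Figure D1:**
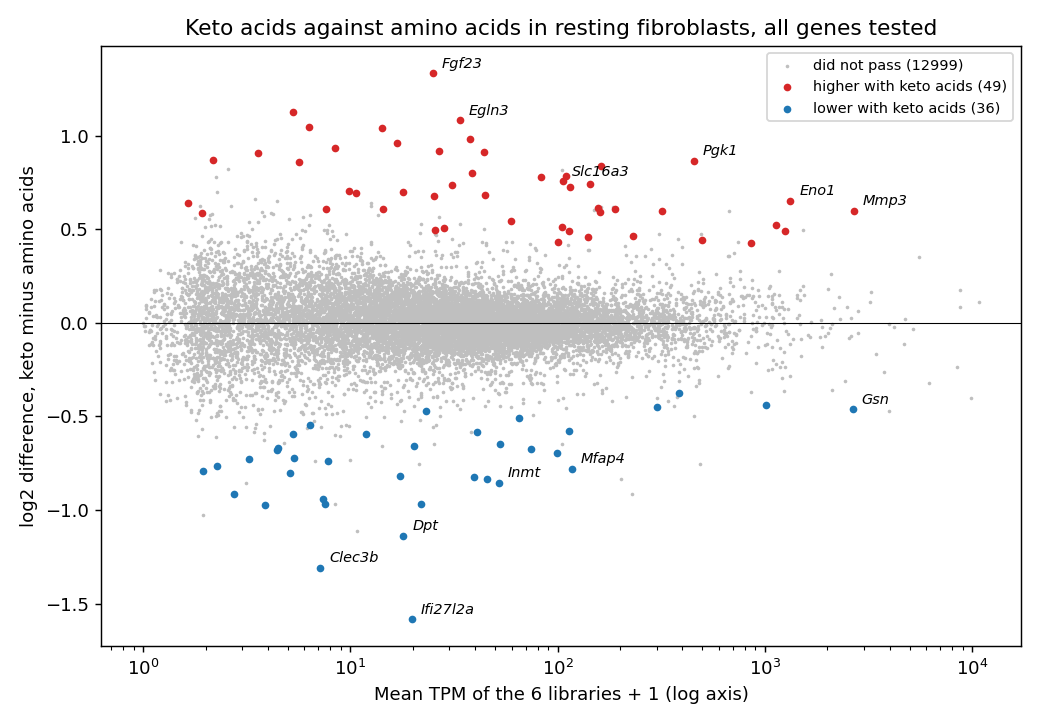
Log2 difference of log2(TPM + 1), keto acids minus amino acids under PBS, for the 13084 genes tested (y axis) against the mean TPM of the 6 libraries plus 1 (x axis, log scale). The 49 genes that rose are red and the 36 that fell blue; Fgf23 is highest at 1.33 and Ifi27l2a lowest at -1.58.

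The promoters of the 4 list members with the lowest adjusted p are shown so that the letters of the core HIF-binding motif can be read in them. Each window runs from 250 bases before to 50 bases after the annotated start, 300 bases, from RefSeq on build GRCm38.p6; the authors' files use mm39, from which no coordinate is taken. Capitals mark each match of ACGTG or GCGTG on either strand (a match on the other strand reads CACGT or CACGC), and the palindrome of both strands, CACGTG, would count on each. Pdk1 (pyruvate dehydrogenase kinase) is at chr2:71872974-71873273, plus strand, in the first of its 2 entries, Slc16a3 (the lactate exporter MCT4) at chr11:120948817-120949116, plus strand, Pgk1 (phosphoglycerate kinase) at chrX:106186850-106187149, plus strand, and Egln3 (a HIF prolyl hydroxylase) at chr12:54203825-54204124, minus strand.
Pdk1: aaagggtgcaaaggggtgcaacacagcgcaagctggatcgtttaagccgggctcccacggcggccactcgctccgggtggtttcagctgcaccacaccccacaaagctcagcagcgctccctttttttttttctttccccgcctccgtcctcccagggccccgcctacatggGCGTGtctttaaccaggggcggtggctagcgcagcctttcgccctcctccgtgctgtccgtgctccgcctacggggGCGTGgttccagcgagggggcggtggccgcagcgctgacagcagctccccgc
Slc16a3: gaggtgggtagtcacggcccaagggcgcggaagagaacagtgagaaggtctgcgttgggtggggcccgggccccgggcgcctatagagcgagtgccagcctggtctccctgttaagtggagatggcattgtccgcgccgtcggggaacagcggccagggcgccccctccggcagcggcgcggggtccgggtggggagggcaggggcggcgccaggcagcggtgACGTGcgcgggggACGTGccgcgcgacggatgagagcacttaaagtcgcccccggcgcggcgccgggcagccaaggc
Pgk1: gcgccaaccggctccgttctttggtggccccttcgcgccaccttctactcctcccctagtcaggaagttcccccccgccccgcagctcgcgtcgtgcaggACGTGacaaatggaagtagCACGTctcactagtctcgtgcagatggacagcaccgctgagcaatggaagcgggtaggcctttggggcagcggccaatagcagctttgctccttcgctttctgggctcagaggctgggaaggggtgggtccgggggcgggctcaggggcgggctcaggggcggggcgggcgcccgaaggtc
Egln3: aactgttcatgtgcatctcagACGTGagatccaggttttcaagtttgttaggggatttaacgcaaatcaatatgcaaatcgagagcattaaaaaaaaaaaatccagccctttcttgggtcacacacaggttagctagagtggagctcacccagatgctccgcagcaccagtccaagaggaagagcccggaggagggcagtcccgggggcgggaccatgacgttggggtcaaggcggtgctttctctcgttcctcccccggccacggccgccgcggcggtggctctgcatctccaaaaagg
Pdk1 holds 2 matches of GCGTG in this window and none in that of its other entry, Slc16a3 and Pgk1 hold 2 of ACGTG each, and Egln3 holds 1 match of the same motif. The motif ACGTG occurred in 13 of the 16 list members that rose (81.2%), in 29 of the 43 risers with an entry (67.4%) and in 2 of the 22 fallers with an entry (9.09%), beside 29.2% of the 10412 tested genes with an entry and 19.6% of all 32851 windows. GCGTG occurred in 9 of the 16 (56.2%), 26 of the 43 (60.5%) and 6 of the 22 (27.3%), beside 55.8% of tested genes and 32.4% of all windows. Either motif occurred in 16 of the 16 (100%), 36 of the 43 (83.7%) and 7 of the 22 (31.8%). Beside these stood 67.4% of tested genes and 43.8% of all windows. A gene counted when any of its windows held the motif, whereas the share of all windows counts each window singly. Over all 27025 genes with an entry the shares were 21.78% for ACGTG and 35.15% for GCGTG. The 16 come from a list of known glycolytic and hypoxia-inducible genes, drawn up with earlier results of these data known. A high share among them was therefore likely beforehand, and the 43 risers include these 16. A match describes the letters of the window only, and binding by HIF was not tested.

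Among the genes of oxygen sensing, Egln3, which hydroxylates HIF-α and is itself a HIF target, stood at 21.1, 20.2 and 20.5 TPM with amino acids and at 45.9, 42.8 and 45.3 TPM with keto acids. Every keto acid library was far above every amino acid library. The difference was 1.08 log2 (SE 0.11, adjusted p = 7.38e-06). Egln1, the other measured hydroxylase of HIF-α among the genes that rose, stood at 86.5, 85.5 and 84.8 TPM with amino acids and 121, 119 and 127 TPM with keto acids, a rise of 0.51 log2 (adjusted p = 0.000162), again with no overlap. Car9, a carbonic anhydrase of hypoxic cells, was low but rose from 3.00 ± 0.0847 to 6.28 ± 0.780 TPM (mean ± SD, n = 3 each; 0.86 log2, adjusted p = 0.00126). Ankrd37, a HIF target in mouse and human cells, rose by 0.91 log2 from 1.48 ± 0.220 TPM, and Bhlhe40, a transcriptional repressor of the clock, went from 27.0, 28.8 and 26.0 to 47.8, 48.9 and 47.8 TPM (0.80 log2), with the lowest adjusted p of all genes (1.95e-06).

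Some transcripts of glucose transport and of the upper steps of glycolysis were higher with keto acids. Hk2, the inducible hexokinase, stood at 16.5, 17.8 and 18.5 TPM with amino acids and 36.1, 34.3 and 32.1 TPM with keto acids. The groups did not overlap, and the SD within them was 1.02 and 2.02 TPM. Hk2 rose by 0.92 log2 (SE 0.11, adjusted p = 4.61e-05), Slc2a1, the glucose transporter GLUT1, by 0.59 (from 126 ± 7.94 to 191 ± 10.9 TPM) and Pfkl, a phosphofructokinase, by 0.60 (from 252 ± 10.2 to 383 ± 31.6 TPM). The constitutive hexokinase Hk1 (0.20 log2, 95% interval 0.01 to 0.39, adjusted p = 0.947) and the muscle phosphofructokinase Pfkm (0.02, -0.18 to 0.22) did not pass. Gpi1, Pfkfb3, Tpi1 and Gapdh, at 0.60, 0.62, 0.47 and 0.50 log2, also did not pass (adjusted p 0.108, 0.112, 0.137 and 0.168), although their libraries did not overlap.

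In the lower steps Pgk1, which makes ATP from bisphosphoglycerate, stood at 325, 327 and 307 TPM with amino acids and 582, 549 and 622 TPM with keto acids. Its lowest keto acid library was far above its highest amino acid library. Pgk1 rose by 0.87 log2 (SE 0.09, adjusted p = 6.03e-06). Eno1 (enolase) rose by 0.65, Aldoa (aldolase) by 0.52, Pkm (pyruvate kinase) by 0.49, Pgam1 (phosphoglycerate mutase) by 0.49 and Ldha (lactate dehydrogenase A) by 0.43 log2, the last just inside the threshold (adjusted p = 0.0457). These are abundant transcripts, with Eno1 going from 1031 ± 22.8 to 1625 ± 132 TPM, and the counting of reads shared with their processed copies, such as those of Eno1 and Pgam1, is uncertain.

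At the exit of glycolysis, Pdk1, the kinase that switches off pyruvate dehydrogenase, stood at 59.8, 62.9 and 58.6 TPM with amino acids and 106, 103 and 105 TPM with keto acids. Slc16a3, which exports lactate and can carry other monocarboxylates, stood at 78.5, 78.3 and 75.9 TPM and 128, 129.5 and 138 TPM. The keto acid libraries of both genes stood apart from all amino acid libraries, by much more than the spread within a group. Pdk1 rose by 0.78 log2 (SE 0.07) and Slc16a3 by 0.76 log2 (SE 0.07), with an adjusted p of 3.38e-06 for each. Of the other genes on the list, Vegfa, the endothelial growth factor, rose from 149, 152 and 147 to 229, 228 and 229 TPM (0.61 log2) and Bnip3, a mitophagy receptor, from 97.6, 112 and 110.3 to 172, 170.2 and 193 TPM (0.74 log2). Neither gene had overlapping libraries. Ndrg1 (0.17, 95% interval -0.00 to 0.35), Adm (0.23, -0.12 to 0.58), Pfkp (0.28, 0.10 to 0.45) and Pfkfb4 (-0.14, -0.38 to 0.11) are known hypoxia-responsive genes or glycolytic enzymes that did not pass.

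Over the whole list of 26 genes the median difference was 0.60 log2, beside 0.00 for all genes tested. Of the 26 differences 25 were positive, beside 51.4% of all genes. At an unadjusted p under 0.05 in limma 22 were higher and none lower, beside 2.36% and 2.63% of all genes. Keto acid libraries lay wholly above the amino acid libraries in 24 and wholly below in none, beside 8.51% and 8.58% of all genes. The count of 16 stayed between 13 and 24 in every alternative run. With any 1 of the 6 compared libraries left out it was 13 or 14, and without replicate 1 of BCAA-free TGF-β1 it was 20. The list was drawn up with earlier results of these data known, so the count describes these libraries.

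**Figure D2:**
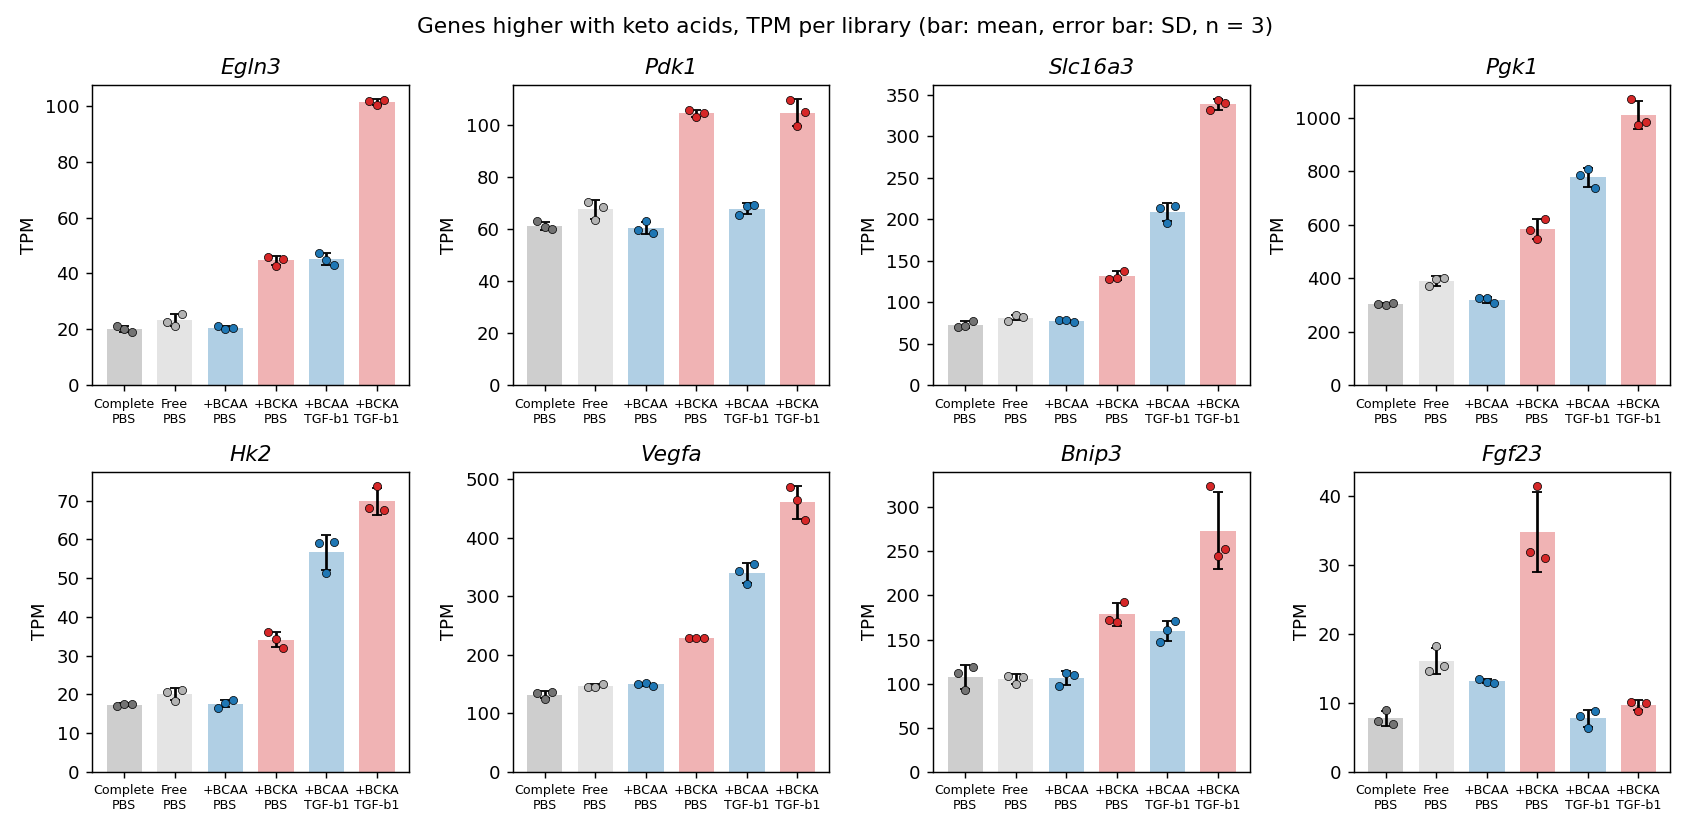
TPM per library (points), mean (bar) and SD (error bar), n = 3, for 8 genes that rose with keto acids under PBS, in 4 PBS groups and 2 TGF-β1 groups. The 3 keto acid libraries under PBS stand above all 9 other PBS libraries in each of the 8 panels; for Egln3 they sit between 42.8 and 45.9 TPM and the amino acid libraries between 20.2 and 21.1 TPM.

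Other enzyme genes rose too. The glycogen genes Gbe1 (branching enzyme, 0.73 log2) and Gys1 (synthase, 0.43), the endoplasmic reticulum oxidase Ero1a (108, 114 and 124 TPM against 226, 193 and 201 TPM, 0.84), the mitochondrial adenylate kinase Ak4 (0.70), and the collagen prolyl hydroxylases P4ha1 (0.44) and P4ha2 (0.46) all rose. So did Cox4i2, the subunit of cytochrome oxidase that replaces Cox4i1 in low oxygen (4.77 ± 0.162 to 10.1 ± 1.46 TPM, 0.93), Fam162a (0.79), the apelin gene Apln (27.9, 33.2 and 27.9 to 57.5, 57.7 and 54.7 TPM, 0.91) and the folate enzyme gene Mthfd1l (0.68). Cox4i2 was the single nuclear gene of oxidative phosphorylation that rose, of 84 tested, whose median was -0.00. The calls on Fam162a and P4ha2 were lost on leaving out any 1 of 4 of the 6 libraries and that on Mthfd1l any 1 of 5 (highest adjusted p 0.0997, 0.137 and 0.185), and that on Cox4i2 without replicate 3 of BCKA (0.0691).

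The largest rise was that of a secreted hormone. Fgf23, known as a bone hormone of phosphate balance, stood at 13.4, 13.1 and 12.8 TPM with amino acids and 31.9, 41.5 and 31.0 TPM with keto acids. Replicate 2 of the keto acids was highest, and no libraries overlapped. Fgf23 rose by 1.33 log2 (SE 0.17, adjusted p = 9.54e-05). Other large rises were those of Tnfrsf9, the costimulatory receptor 4-1BB (2.05, 2.93 and 2.00 to 6.03, 6.14 and 6.45 TPM, 1.13 log2), the G-protein-coupled receptor gene Gpr35 (3.10, 3.85 and 2.45 to 7.67, 8.55 and 6.26 TPM, 1.04) and the retinol carrier gene Rbp4 (8.56, 8.06 and 8.41 to 18.1, 17.4 and 19.1 TPM, 1.04). None of the 3 genes had overlapping libraries. Nxph4, a neurexophilin, rose by 0.96, and Prl2c2, a prolactin-family gene with near-identical copies that leave its own count uncertain, by 0.98. The stromelysin Mmp3, among the most abundant transcripts to rise, went from 2149, 2128 and 2121 to 3244, 2947 and 3527 TPM (0.60, adjusted p = 0.00269). The immediate early gene Ier3 (0.68), the serum- and glucocorticoid-induced kinase Sgk1 (0.46), the glucocorticoid-activating enzyme gene Hsd11b1 (0.73), the Kit ligand gene Kitl (0.54) and the imprinted genes H19 (0.61) and Dlk1 (0.50) also rose. The other genes that rose, by 0.51 to 0.87, were Mcpt8, Esm1, Unc13a, Map10, Hpse, Nptx1 and 2 predicted genes.

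The fallers were led by Ifi27l2a, an interferon-inducible gene, at 31.5, 28.1 and 26.3 TPM with amino acids and 9.19, 7.84 and 9.66 TPM with keto acids. The highest keto acid library was far below the lowest amino acid library. It fell by 1.58 log2 (SE 0.26, adjusted p = 0.0022). It was the only 1 of 40 interferon-response genes tested that fell, beside 0.275% of all genes. The list's median was -0.22, with 37 of the 40 below 0 and 3 above it, where 51.4% of all genes lay. At an unadjusted p under 0.05 in limma 5 were lower and none higher, beside 2.63% and 2.36% of all genes. Keto acid libraries lay wholly below in 16 and wholly above in none, beside 8.58% and 8.51% of all genes. Isg15, at -0.42 log2 (adjusted p = 1), and Ifit1, at -0.45 (1), did not pass. Against complete medium 6 of the 40 fell with keto acids (median -0.49), as did 69 of the 13084 genes tested. Amino acids lowered none of the 40 against it (median -0.28). At an unadjusted p under 0.05 in limma 28 were lower with keto acids and 7 with amino acids, as were 458 and 47 of all genes. None of the 40 passed against BCAA-free medium with either treatment. There the median with keto acids was -0.02, with 18 higher and 22 lower, beside 7883 and 5199 of all genes. The median with amino acids was 0.14, with 38 higher and 2 lower, beside 7963 and 5120 of all genes.

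Of 14 tested markers of alveolar and adventitial fibroblasts 5 fell and none rose, beside 0.275% and 0.375% of all genes. The list median was -0.45 log2, beside 0.00 for all genes. At an unadjusted p under 0.05 in limma 8 were lower and none higher, beside 2.63% and 2.36% of all genes. Keto acid libraries lay wholly below in 10 and wholly above in none, beside 8.58% and 8.51% of all genes. Clec3b, the tetranectin gene, stood at 9.83, 8.10 and 9.53 TPM with amino acids and 3.04, 2.78 and 3.47 TPM with keto acids, and Dpt, the matrix protein dermatopontin, at 23.3, 22.0 and 25.8 TPM and 9.30, 11.9 and 9.66 TPM. The libraries of the groups did not overlap, and every keto acid library was far below the amino acid libraries. Clec3b fell by 1.31 log2 (adjusted p = 3.28e-05) and Dpt by 1.14 (adjusted p = 1.63e-05). Inmt, a methyltransferase marker of alveolar fibroblasts, stood at 69.8, 61.4 and 65.5 TPM and 33.7, 30.9 and 43.8 TPM (-0.86 log2), and Mfap4, a microfibril protein, at 143, 143 and 154 TPM and 86.1, 79.6 and 89.2 TPM (-0.78 log2, adjusted p = 0.000149). In both genes all keto acid libraries were below all amino acid libraries. The abundant actin-severing protein gene Gsn fell by 0.46 log2 from 3069.7 ± 233 to 2233 ± 236 TPM (adjusted p = 0.0285). With a pseudocount of 0.1 the calls on Clec3b and Inmt were lost (adjusted p 0.0611 and 0.0641), and 3 of the 14 markers fell.

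Not every fibroblast marker was lower. Pdgfra, which defines the lineage, stood at 1277, 1247 and 1326 TPM with amino acids and 1320.4, 1274 and 1145 TPM with keto acids (-0.04 log2, 95% interval -0.33 to 0.24), and Tcf21 and Npnt differed by 0.11 (-0.08 to 0.30) and -0.01 (-0.26 to 0.25). These groups overlapped or stood close together. Decorin (Dcn, -0.50), Col14a1 (-0.49) and Scara5 (-0.44) were lower in all 3 keto acid libraries without passing (adjusted p 1, 0.185 and 0.991). The summed TPM of the 15 markers ran from 5796 to 6358 with amino acids and from 4538 to 5030 with keto acids. The abundant Gsn made the largest part of these sums, so they do not show a shift shared by all 15. In a bulk culture, fewer cells of a type and less of its RNA per cell cannot be told apart.

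Among 52 extracellular matrix genes 4 fell and none rose, beside 0.275% and 0.375% of all genes, with a median of -0.10. Beside Dpt and Mfap4 these were lumican (Lum, 21.4, 23.0 and 19.2 TPM against 11.0, 12.3 and 11.3 TPM, -0.82 log2) and fibromodulin (Fmod, -0.51), small leucine-rich proteoglycans that bind collagen fibrils. Without replicate 1 of BCAA-free TGF-β1 the count was 10, while the falls among all genes tested went from 36 to 76. A pseudocount of 0.1 lost the call on Fmod (limma adjusted p = 0.063). With all libraries, 10 of the 52 were lower and none higher at an unadjusted p under 0.05 in limma (2.63% and 2.36% of all genes). Keto acid libraries lay wholly below in 21 and wholly above in 6, beside 8.58% and 8.51% of all genes. Col1a1, the main fibrillar collagen, stood at 4877, 4488 and 4506 TPM with amino acids and 3145, 3291 and 3557 TPM with keto acids. Its libraries did not overlap, yet its difference of -0.47 log2 had a wide interval from the pooled spread (-1.24 to 0.29, adjusted p = 1). Acta2, the smooth muscle actin of myofibroblasts, differed by -0.11 (-0.44 to 0.22). The gelatinase Mmp2 fell by 0.44 (1169 ± 65.7 to 860.5 ± 33.3 TPM) where Mmp3 rose, and podocan (Podn) fell by 0.38.

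Further fallers were Cyp2f2, a cytochrome P450 (30.6, 28.0 and 25.8 TPM against 14.5, 12.9 and 14.3 TPM, -0.97 log2), the neuropeptide Y receptor Npy1r (-0.94), and Adamtsl2, a microfibril-binding protein (-0.97). No libraries of these genes overlapped between the groups. The chemokine Cxcl13 (-0.69), complement factor B (Cfb, -0.45), Ly6c1 (-0.84, with near-identical Ly6 copies), the angiotensin receptor Agtr2 (-0.58), autotaxin (Enpp2, -0.72), Comp (-0.80) and the microtubule minus-end protein Camsap3 (-0.74) fell as well. The call on Cfb was lost without any 1 of the 6 libraries (highest adjusted p 0.129), those on Cxcl13 (0.0976) and Camsap3 (0.258) without any of 5, that on Mmp2 without any of 4 (0.123), those on Comp (0.0794), Fmod (0.0831) and Ier3 (0.0854) without either of 2, and that on Enpp2 (0.0637) without 1. With a pseudocount of 0.1 the calls on Cyp2f2 (0.413), Ly6c1 (0.0857), Tnnt2 (0.0695), Camsap3 (0.411), Comp (0.067), Cxcl13 (1), Enpp2 (1) and Fmod (0.063) were lost, and after median centring those on Camsap3 (0.0633), Cfb (0.104), Mthfd1l (0.119) and P4ha2 (0.103). Other fallers, at -0.47 to -0.97, were Slc37a2, Tnnt2, Slco2b1, Cntn1, Col6a5, Adamts17, Sult5a1, Itih4, Serpina3c, Wscd2 and Chodl. Tnnt2, a troponin on the cardiac marker list, was low, at 2.50, 2.37 and 2.83 TPM with amino acids and 0.816, 0.682 and 1.19 TPM with keto acids; Myh6 did not exceed 0.105 TPM.

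**Figure D3:**
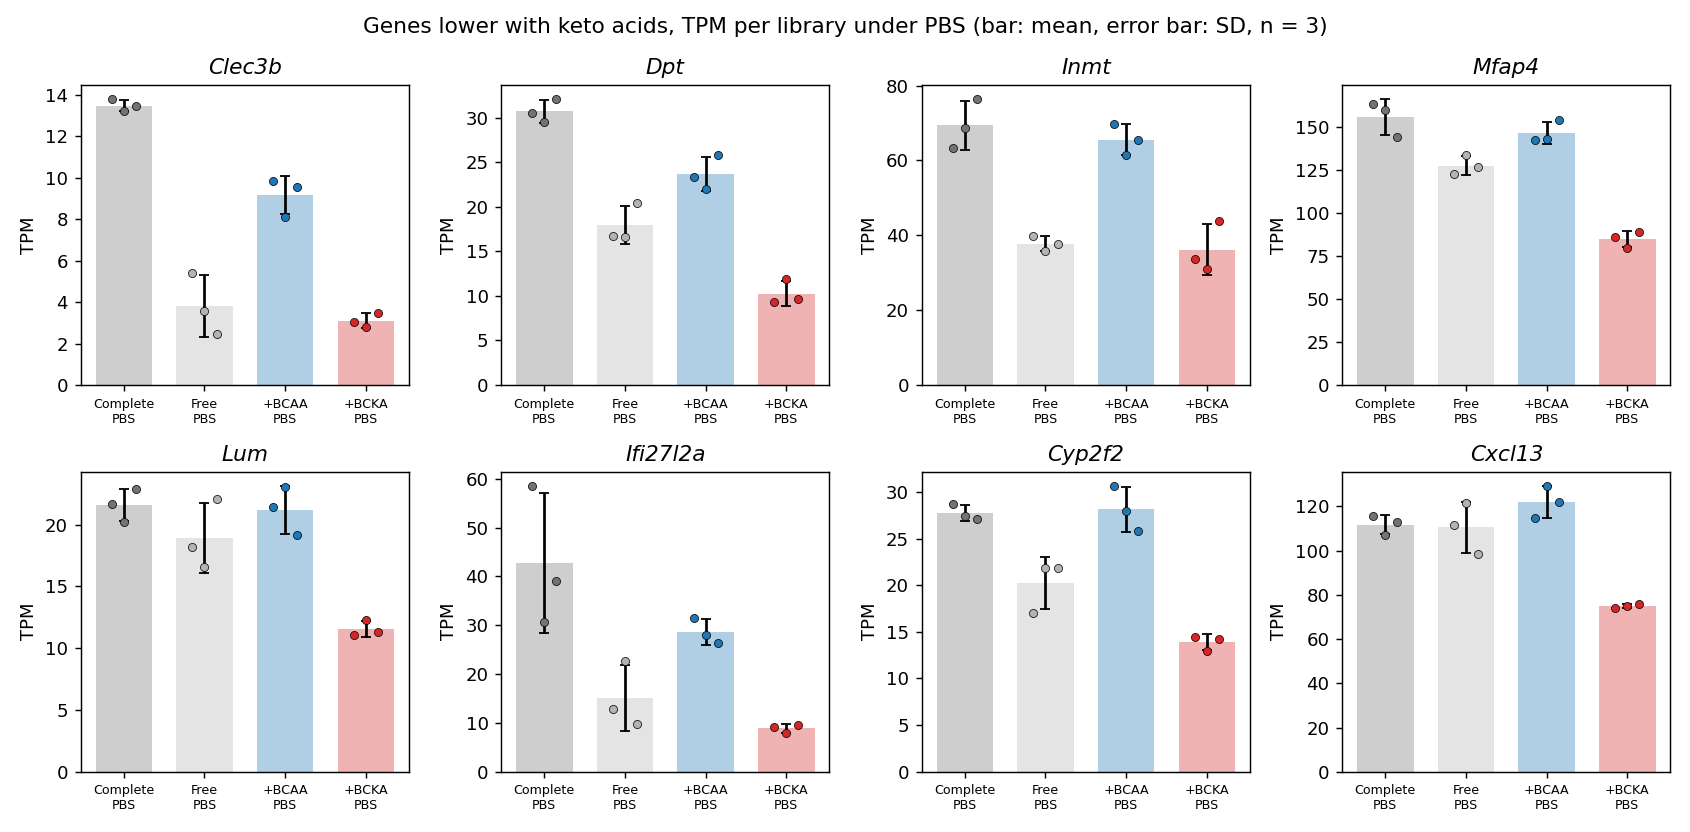
TPM per library (points), mean (bar) and SD (error bar), n = 3, for 8 genes that fell with keto acids, in the 4 PBS groups. The keto acid libraries of Clec3b and Inmt stand near those of BCAA-free medium, while those of Mfap4, Lum and Cxcl13 stand below all 9 other PBS libraries.

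None of the genes that make or break BCKA passed. Of the 8 genes of transamination and the BCKDH complex none had even an unadjusted p under 0.05; their differences ran from -0.13 (Bcat2) to 0.18 (Bcat1), and all their 95% intervals lay between -0.41 and 0.45 log2. Bcat1 stood at 16.7, 14.7 and 16.1 TPM with amino acids and 17.2, 18.8 and 18.2 TPM with keto acids. Its lowest keto acid library was just above its highest amino acid library. Bckdha, an E1 subunit, differed by -0.07 (-0.30 to 0.16), Bckdhb, the other E1 subunit, by 0.01, Dbt, the E2 subunit, by 0.09 (-0.14 to 0.32), Dld, the E3 subunit, by 0.01, the inhibitory kinase Bckdk by -0.04 (-0.28 to 0.19) and the activating phosphatase Ppm1k by -0.01 (-0.26 to 0.24). Of 20 genes of the later steps of BCAA oxidation none passed in limma (median -0.01, 2 lower at an unadjusted p under 0.05), and of 15 transport genes Slc16a3 alone did. The leucine transporter subunit Slc7a5 differed by -0.12 (-0.47 to 0.22), the mitochondrial BCAA carrier Slc25a44 by -0.15 (-0.56 to 0.26) and the monocarboxylate transporter Slc16a1 by 0.28 (0.07 to 0.50, adjusted p = 0.548).

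The list for amino acid shortage (37 genes, median -0.00) held no gene that passed in limma; at an unadjusted p under 0.05 there was 1 higher and 1 lower, beside 2.36% and 2.63% of all genes. None of 20 cytosolic aminoacyl-tRNA synthetases passed at either level (median 0.04), nor did any of 34 genes of leucine sensing and mTORC1 control in limma (median -0.06), of which 1 was lower at an unadjusted p under 0.05. Atf4, the regulator of the response, differed by -0.08 (-0.46 to 0.31), and its targets Asns by 0.14 (-0.17 to 0.46), Trib3 by -0.05 (-0.52 to 0.41), Ddit3 by -0.04 (-0.51 to 0.42) and Sesn2 by -0.18 (-0.44 to 0.07). Asns stood at 37.3, 35.2 and 37.4 TPM with amino acids and at 38.3, 39.4 and 44.4 TPM with keto acids, so every keto acid library was higher by a little. Stc2, a secreted glycoprotein of the stress response, came nearest to passing at 0.39 log2 (adjusted p = 0.0538). A p that misses the threshold does not show that both treatments act alike.

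**Figure D4:**
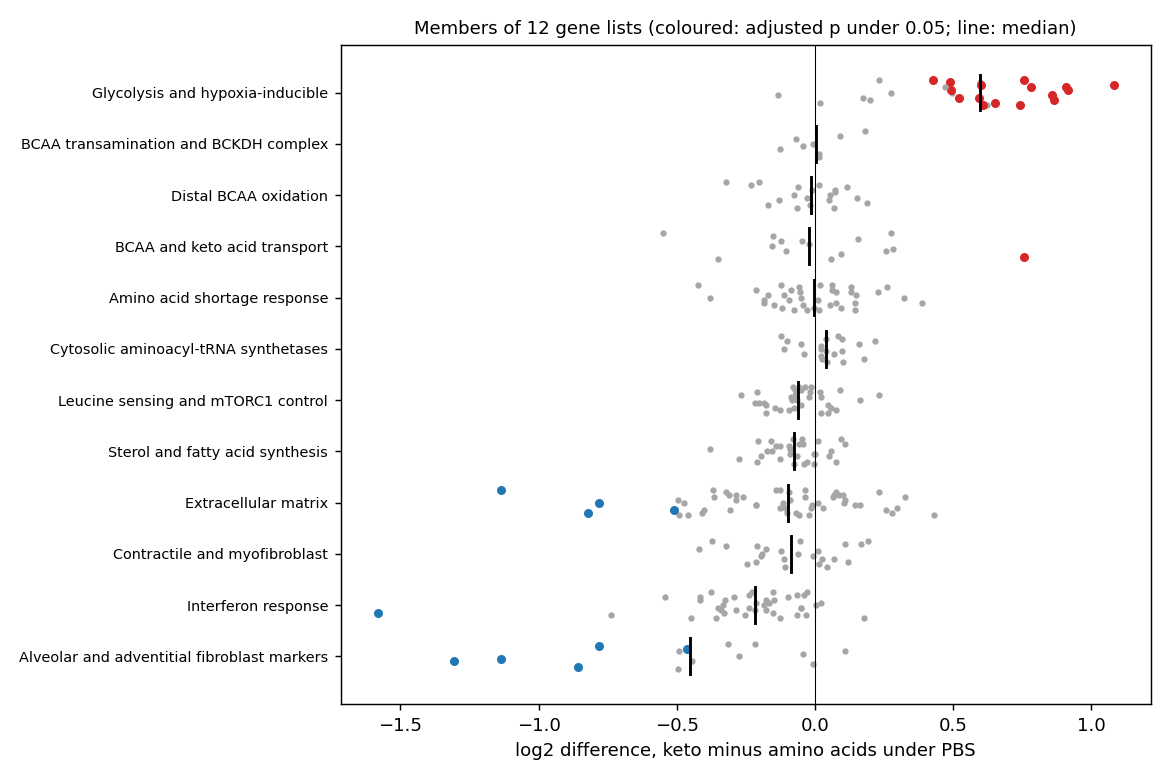
Log2 difference of log2(TPM + 1), keto minus amino acids under PBS, for each tested gene (point) of 12 lists; coloured points passed and vertical lines are list medians. The glycolysis and hypoxia list is centred at 0.60 and the fibroblast marker list at -0.45, while the 8 genes of BCAA transamination and the BCKDH complex lie between -0.13 and 0.18.

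The other PBS groups place both treatments, although comparisons that share the keto or amino acid libraries are not independent. For each of the 49 risers the keto acid mean was the highest of the 4 PBS groups. Against BCAA-free medium keto acids raised 13 of the 26 hypoxia-list genes (median 0.51) and amino acids none (median -0.06), with 0.397% and 0.122% of all genes raised. For amino acids 2 of the 26 were higher and 4 lower by limma's unadjusted p at 0.05 (3.63% and 2.25% of all genes). Pgk1 stood at 302, 299 and 308 TPM in complete medium and 369.9, 397 and 402 TPM in BCAA-free medium, and Egln3 at 21.3, 20.1 and 19.1 TPM and 22.7, 21.3 and 25.6 TPM. All of these libraries lay below the keto acid libraries. Against complete medium, a comparison added after the values were seen, keto acids raised 18 of the 26 (median 0.59), beside 0.726% of all genes. Amino acids returned against complete medium changed no gene in limma, with 91 higher (0.696%) and 47 lower (0.359%) on unadjusted p under 0.05.

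For the 36 fallers the keto acid mean was the lowest of the 4 groups in 34. Some of them were also low without any addition: Inmt stood at 63.4, 68.6 and 76.3 TPM in complete medium and at 39.7, 35.9 and 37.7 TPM in BCAA-free medium, and Clec3b at 13.8, 13.2 and 13.4 TPM and 5.42, 3.57 and 2.46 TPM. The keto acid levels of these genes overlapped those of BCAA-free medium, and the amino acid levels did not. Amino acids raised Inmt by 0.78, Clec3b by 1.12 and Gsn by 0.59 log2 over BCAA-free medium (adjusted p 0.0202, 0.00128 and 0.0138), and keto acids differed from it by -0.08, -0.19 and 0.13, none of which passed. Dpt, Mfap4 and Lum behaved otherwise: keto acids lowered them below BCAA-free medium by 0.75, 0.58 and 0.66 log2 (adjusted p 0.00269, 0.00444 and 0.0355). Over all genes, keto acids raised 52 and lowered 35 against BCAA-free medium (37 and 38 after median centring), and amino acids raised 16 and lowered 18 (14 and 27).

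The same contrast was measured in 6 other libraries that had received TGF-β1, a cytokine known to make fibroblasts contractile and rich in matrix. There 35 genes changed (0.268%), 29 higher (0.222%) and 6 lower (0.0459%). The count fell to between 16 and 26 with any 1 of these 6 libraries left out. Without replicate 1 of BCAA-free TGF-β1, a library outside the contrast, it was 86. Of the 49 genes that rose under PBS, 48 were higher with keto acids under TGF-β1 as well (98.0%, beside 48.0% of all genes), and 16 passed, which is 32.7% of the PBS list and 55.2% of the TGF-β1 list. The exception in direction was Map10 (-0.09 log2). Egln3 stood at 47.4, 44.8 and 43.2 TPM with amino acids and 102, 100.3 and 102 TPM with keto acids under TGF-β1 (1.15 log2, adjusted p = 9.38e-06), and Slc16a3 at 213, 196 and 216 TPM and 332, 344 and 339.9 TPM (0.70 log2, adjusted p = 1.41e-05). For both genes all keto acid libraries again lay above all amino acid libraries. Of the hypoxia list 11 of 26 rose under TGF-β1, with a median of 0.46; Hk2 (0.30 log2, adjusted p = 0.815) and Fgf23 (0.30, adjusted p = 1) did not pass there. Ndrg1 (0.69), Pfkp (0.41) and the haem oxygenase gene Hmox1 (0.86) rose under TGF-β1 and did not pass under PBS. The test of the difference between both conditions called none of the 26 list genes in limma; 1 was higher and 2 were lower by unadjusted p at 0.05, as were 1.53% and 1.51% of all genes.

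Of the 36 genes that fell under PBS, 31 were lower with keto acids under TGF-β1 as well (86.1%, beside 51.9% of all genes). Their median was -0.73 under PBS, where they were chosen for passing, and -0.10 under TGF-β1, and Rassf2, a RAS-association domain gene, was the 1 that passed again (-0.58 and -0.63 log2; 2.78% of the 36 and 16.7% of the 6). Only 23 of the 36 reached a mean of 1 TPM in either TGF-β1 group. The test of the difference between the conditions called 3 genes of all tested (0.0229%), among them Dpt and Clec3b. Under TGF-β1 Dpt had a mean of 0.849 TPM with amino acids and 1.21 TPM with keto acids and Clec3b of 0.0559 and 0.0166 TPM, levels at which little difference can be seen. On leaving out single libraries of the 4 groups the test kept its call on Dpt in 12 of 12 fits and on Clec3b in 1 (highest adjusted p 0.00967 and 0.19).

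**Figure D5:**
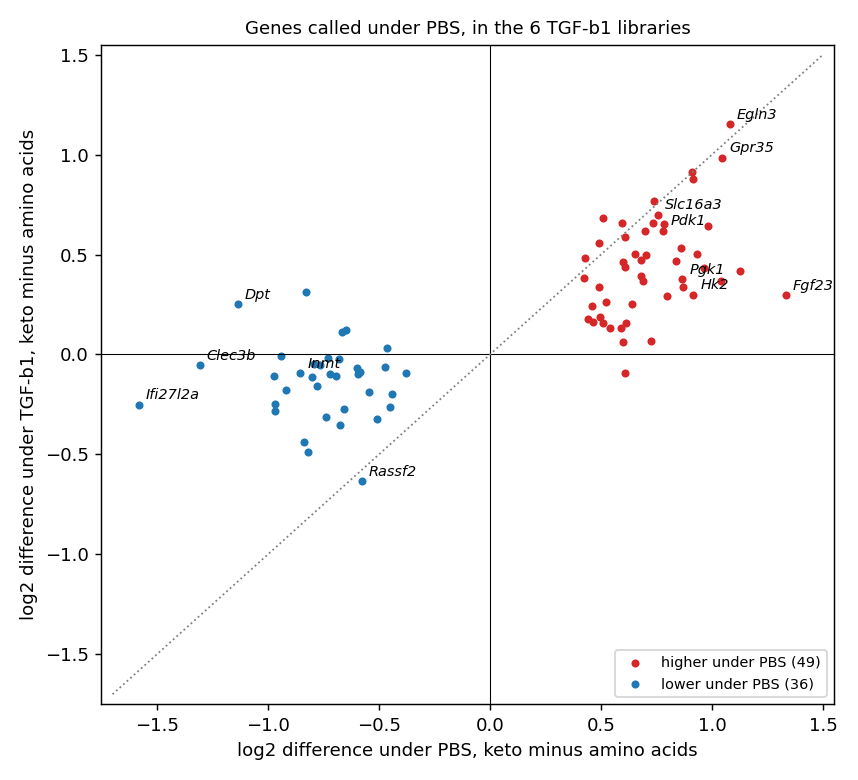
Log2 difference, keto minus amino acids, under PBS (x axis) and in the 6 TGF-β1 libraries (y axis) for the 85 genes that changed under PBS; the dotted line marks equal differences. Of the 49 red genes 48 lie above 0 on both axes, whereas the 36 blue genes have a median of -0.10 on the y axis, with Rassf2 lowest at -0.63.

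The libraries matched their labels as fibroblasts. Across the 6 libraries Col3a1 stood at 8110 to 11709 TPM and Pdgfra at 1145 to 1326 TPM, while Ptprc (leukocytes), Epcam (epithelium), Cdh5 (endothelium) and Sftpc (alveolar type 2 cells) did not exceed 1.15 TPM. Adipocyte markers summed to 390 to 418 TPM with amino acids and 385 to 431 TPM with keto acids. Adipoq was at 0 in all 6 libraries. Alveolar type 1 markers summed to 192 to 207 and 215 to 225 TPM, higher with keto acids. Only 3 of them were tested, of which 1 was lower and none had an unadjusted p under 0.05 in limma. Pericyte and smooth muscle markers summed to 1756 to 1862 and 1645 to 1730 TPM. Mesothelium markers summed to 121 to 128 and 108 to 116 TPM, and both lists were lower with keto acids. The part of these markers in the results was not tested. Macrophage markers summed to 8.01 to 9.75 and 6.03 to 9.47 TPM, with Adgre1, C1qa and Tyrobp at 0. The files give no read counts, so the depth is unknown; 16147 to 16578 genes were listed above 0 per library, and no mitochondrial gene is listed. Pairs of replicates correlated across genes at 0.996 to 0.997 with amino acids and 0.993 to 0.996 with keto acids, with replicate 3 of BCKA farthest from the others, and no libraries were identical. Replicate 1 of BCAA-free TGF-β1, which enters through the pooled spread alone, correlated with its replicates at 0.953 and 0.966.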

How the data were processed

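Poly(A) RNA was sequenced, per the labels' protocols. The deposited values are TPM, made by the authors for each library over all genes; the submitters' processing notes name the build mm39 and the tools HISAT2, Subread, featureCounts, Trim Galore, DESeq2 and FastQC, without their order, and which annotation was used is not given in these sources. TPM keeps no read depth, so no interval for counting error is given, and a large change in abundant genes shifts the values of all others. Groups came from sample titles.

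Values were taken as log2(TPM + 1). Genes with TPM of at least 1 in at least 3 of 24 fibroblast libraries were fitted as 8 group means. The tool was limma 3.58.1 under R 4.3.3, its prior variance following mean expression, and all groups share 1 estimate of the spread. A gene was called changed when its two-sided p, adjusted by Benjamini-Hochberg across the 13084 genes, was under 0.05; each adjusted p in the text is limma's, and 95% intervals are of single log2 differences, not adjusted. An exact permutation test of 3 against 3 libraries cannot go below 0.1. Of 7 comparisons 2, those against complete medium, were added after values were seen.

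The comparison, its members and the 34 gene and 14 marker lists were chosen with earlier results of these data known, and no list was tested. Named genes were the 15 largest rises and falls whose mean TPM reached 5 in either group and whose libraries did not overlap, up to 4 passing members per list, and fixed genes of BCAA handling and shortage; some genes the rule names are not reported here, and other genes were named after their values were seen. Motifs were searched in RefSeq promoters (GRCm38.p6). Alternatives tried were a pseudocount of 0.1 or 0.5, no filter or a TPM of 5, median centring, fits of the compared or the 4 PBS groups, array weights, no trend, the replicate number as a term, and libraries left out in turn. The procedure was tested on simulated data.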

Additional observations from a re-analysis of the deposited data

Results flagged for a closer look

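In Dpt and Clec3b, which are among 3 such genes, the keto minus amino acid difference itself differed between TGF-β1 and PBS, by the interaction term in limma (0.0229% of genes tested). For Dpt the difference was 1.39 log2 higher under TGF-β1 (adjusted p = 0.00124): it was -1.14 under PBS and 0.25 under TGF-β1, where its mean was 0.849 TPM with amino acids and 1.21 TPM with keto acids. For Clec3b it was 1.25 higher (adjusted p = 0.0367), but Clec3b stood at 0.0559 and 0.0166 TPM under TGF-β1, a level at which log2(TPM + 1) can hold almost no difference.

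With each of the 12 libraries of the 4 groups left out in turn, Dpt kept its call in 12 fits and Clec3b in 1 (highest adjusted p 0.19). With a pseudocount of 0.1 neither passed (adjusted p 0.104 for Dpt and 1 for Clec3b).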

How the results depend on the processing

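No named gene that was called changed sign under any alternative, but the balance of higher and lower calls did: of the 49 higher and 36 lower in A below it became 54 and 56 without a filter and 344 and 379 with array weights, in E 16 and 18 became 1315 and 724 with array weights, and in F 95 and 69 became 243 and 264 with the compared groups alone. Of the 85 genes, 54 were still called with a pseudocount of 0.1, 82 with the compared groups alone, 81 with the 4 PBS groups, 85 with array weights and 66 after median centring. The counts that moved were A, keto against amino acids under PBS (85); B, the same under TGF-β1 (35); C, the difference between A and B (3); D, keto acids against BCAA-free medium (87); E, amino acids against it (34); and F, keto acids against complete medium (164). With the compared groups alone A to F were 226, 96, 24, 51, 21 and 507, with array weights, whose fit stopped before its tolerance, 723, 535, 220, 1509, 2039 and 1280, and without replicate 1 of BCAA-free TGF-β1 157, 86, 13, 186, 95 and 354. With the 4 PBS groups A, D, E and F were 198, 230, 123 and 433. A pseudocount of 0.1 gave 55, 1, 13 and 109 for A, C, E and F, and 0.5 gave 16 for E. C was called in 5 genes without a filter and 5 after centring. With single libraries of the compared groups left out A to F ran from 48 to 67, 16 to 26, 1 to 3, 44 to 59, 4 to 19 and 87 to 103, by over 1.5 times for replicate 1 of BCKA and 3 of BCAA in A, 5 of 6 libraries in B and D, 9 of 12 in C and all 6 in E and F. Amino acids against complete medium (0) gave 3 without a filter, 16 with the compared groups alone and 9 with array weights. Fibroblast markers that fell (5) numbered 3 with a pseudocount of 0.1 and 8 with the compared groups, the 4 PBS groups or array weights. The causes were not tested. Of 1052 values of named genes under alternatives, 62 lost and 6 gained a call.

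Same-numbered libraries did not deviate together (correlations of -0.138, -0.0790 and -0.312 across genes). With 3 libraries per group, such correlations cannot tell whether the numbers pair them. With the replicate number as a block, 81 genes were called, 78 of them among the 85.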

Other observations

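Of 81 cytosolic ribosomal protein genes none passed in limma with keto acids under PBS, and none had an unadjusted p under 0.05. In 72 of them the difference was above 0, beside 51.4% of all genes tested, with a median of 0.11 log2, but in only 6 did the keto acid libraries lie wholly above, beside 8.51% of all genes. Of 27 genes of the NRF2 and haem response none passed in limma, 23 were higher and the median was 0.12. At an unadjusted p under 0.05, 2 of these were higher and none lower, beside 2.36% and 2.63% of all genes. Their keto acid libraries lay wholly above in 10 and wholly below in 1, beside 8.51% and 8.58% of all genes. Of 36 mitosis genes none passed in limma, 31 were higher, 3 of them at an unadjusted p under 0.05, and the median was 0.12. Their keto acid libraries lay wholly above in 3 and wholly below in none. Mki67, the proliferation marker, stood at 15.1, 18.6 and 18.3 TPM with amino acids and 26.4, 26.6 and 16.9 TPM with keto acids (0.38 log2, adjusted p = 0.95). Replicate 3 of the keto acids stood apart from the other two and within the amino acid range. In BCAA-free medium Mki67 had a mean of 35.4 TPM and in complete medium of 16.0 TPM.

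Of 17 acute phase and complement genes Cfb fell and none rose (0.275% and 0.375% of all genes), 14 were lower and the median was -0.24. At an unadjusted p under 0.05 in limma 8 were lower and 1 was higher, beside 2.63% and 2.36% of all genes. Keto acid libraries lay wholly below in 12 and wholly above in 2, beside 8.58% and 8.51% of all genes. Of 27 immediate early genes Ier3 rose and none fell, 20 were higher and the median was 0.23. By the same unadjusted p 5 were higher and none lower. Keto acid libraries lay wholly above in 9 of the 27 and wholly below in 2.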
